A study of Mus musculus with 12 samples.

Results

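The genes described here are 8 growth factor receptor and Ras-Raf oncogenes and their partners, namely Hgf, Met, Egfr, Erbb2, Nras, Hras1 (now Hras), Braf and Map2k7. They were taken by name from the gene column of the arrays, where 20464 named genes with a position could be measured, and they carry 20 probes of their own in all. The value of a gene in a tumor is the mean log2 ratio, tumor over liver, of its own probes and the 10 probes on either side, called its window below, with the SE over those probes. A window was called gained when this mean was at least 0.4 and lost when it was at most -0.4, the size filter that the study's methods set for a region. For scale, 3 copies in place of 2 in every cell give a log2 ratio of 0.585, 4 copies give 1 and 1 copy gives -1. The array reads DNA copy number, so nothing here speaks of the RNA or protein of these genes.

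Array-based comparative genomic hybridization was carried out on 12 liver tumors, one array for each, with tumor DNA in red (Cy5) and DNA of distant non-tumor liver of the same animal in green (Cy3). All animals had the genotype Mdr2/KO on the FVB background and ate a normal diet, and the livers used as reference share that genotype. Mdr2 is a phospholipid transporter of the bile canaliculus, and without it the liver is chronically inflamed. The 6 post-PHx tumors (4 of males, 2 of females) came from mice aged 9 months after 70% partial hepatectomy at 3 or 6 months, with the age at surgery not given for single mice, and the 6 spontaneous tumors (2 of males, 4 of females) from untreated mice of 13 to 14 months. Age and treatment therefore differ together between the groups and cannot be told apart. The final letter of a tumor's name is the sex of the mouse.

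Growth factors such as HGF and EGF bind receptor tyrosine kinases on the hepatocyte surface. Activated receptors load Ras GTPases with GTP, Ras recruits Raf kinases, and Raf starts a chain of MAP kinases that drives division. Receptor and Ras pathway genes are known oncogenes in many carcinomas, and HGF and the EGF receptor are central to liver regeneration after hepatectomy.

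The arrays stood on 3 slides. Slide 1 held PHx1M to PHx4M, slide 3 held Spon1M to Spon4F, and slide 2 alone held both groups, with PHx5M, PHx6F, Spon5F and Spon6F. The noise of a single probe, estimated from the differences between neighbouring probes, was 0.147 to 0.265 (log2) per array. Spon3F stood apart through its very low probes: 3.57% of its probes were at a log2 ratio of -1 or below, against 1.01% in Spon1M and 0.0143% to 0.231% in the other 10 tumors. In Spon3F 142 deleted and 3 amplified regions were called, 122 of them with under 5 probes.

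Of the 8 genes, Map2k7, which encodes a MAP kinase kinase of the JNK branch, was gained in 4 of 6 post-PHx tumors and in 0 of 6 spontaneous tumors. Of the 96 pairs of a gene and a tumor, 4 were gains, all of them Map2k7 in post-PHx tumors, and 1 was a loss, Erbb2 in Spon3F. Over all 20464 genes, 2.21% of the pairs in post-PHx tumors were gains and 0.0% losses, against 1.53% and 2.02% in spontaneous tumors. A gain in 4 or more post-PHx tumors was seen in 97 genes, Map2k7 among them, which is 0.474% of those tested. The other 7 genes stayed inside the filter in 83 of 84 pairs, with windows from -0.46 to 0.26, and 68 of the 84 lay within 0.1 of 0. In comparison, 74.6% of all genes stayed inside the filter in all 12 tumors, and 6 of these 8 did.

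**Figure D1:**
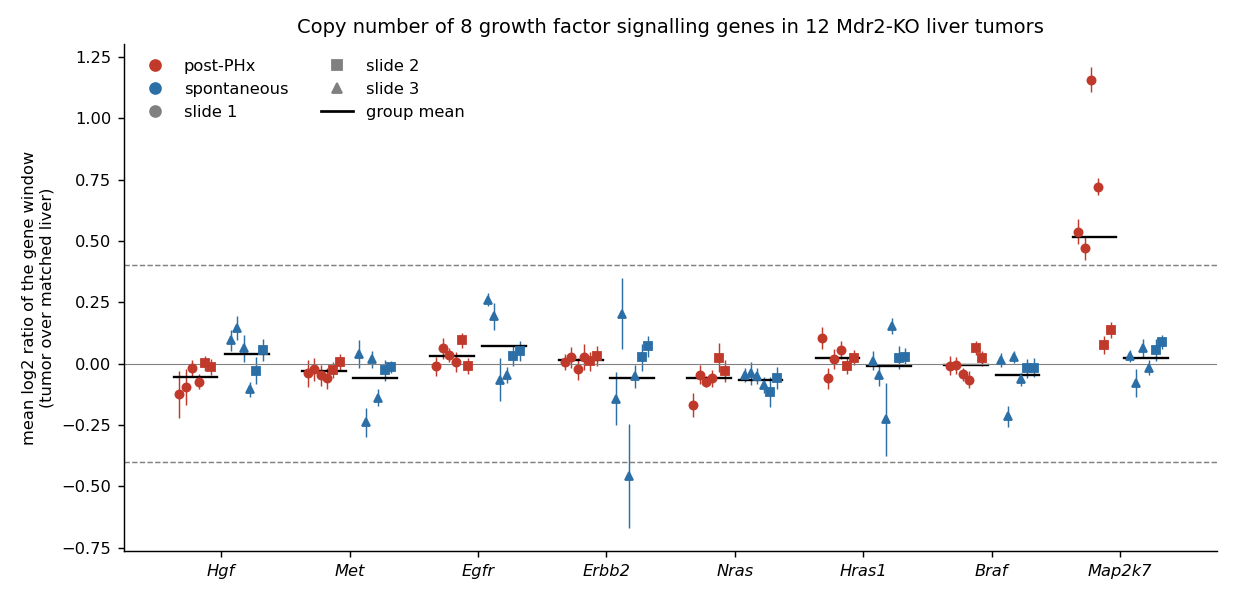
Mean log2 ratio (tumor over matched liver) of each gene window, a point for each tumor with the SE over its probes, in post-PHx (red) and spontaneous (blue) tumors; the marker shape gives the slide, black bars the group means, and dashed lines the filter of 0.4 and -0.4. Apart from 4 points of Map2k7, all of slide 1, and 1 point of Erbb2, every window lies between the dashed lines.

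Hgf encodes hepatocyte growth factor, the ligand of Met, and its 2 probes span chromosome 5 from 16076628 to 16119719 (NCBI36, mm8, the build of the files and of all positions given here). In post-PHx tumors its window was lowest in PHx1M at -0.13, followed by PHx2F at -0.10, PHx4M at -0.07, PHx3M at -0.02, PHx6F at -0.01 and PHx5M at 0.00. In spontaneous tumors it was 0.09 in Spon1M, 0.15 in Spon2M, 0.06 in Spon3F, -0.11 in Spon4F, -0.03 in Spon5F and 0.06 in Spon6F. The groups overlapped, with 4 of the spontaneous tumors above every post-PHx tumor. In the highest and the lowest spontaneous tumor, Spon2M and Spon4F, chromosome 5 as a whole had median log2 ratios of 0.14 and -0.09. In each of PHx1M and PHx2F, 1 probe of the window was at or below -1, and without it the means were -0.04 and -0.03. The group means were -0.05 ± 0.05 (SD, n = 6) and 0.04 ± 0.09 (SD, n = 6), a difference of -0.09 (limma SE 0.0454, adjusted p = 0.864; exact permutation test, two-sided p = 0.0606). With slide as a block the difference was -0.02 (limma adjusted p = 1.0).

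Hgf lay beyond an amplified stretch at the start of the same chromosome. An amplified region, called by an error-weighted score over neighbouring probes, ran from 3285647 to 7184333 in PHx2F (50 probes, 1.92-fold), to 9741756 in PHx3M (85 probes, 3.15-fold) and to 5793960 in PHx6F (50 probes, 1.59-fold). These regions ended 8.89 Mb, 6.33 Mb and 10.3 Mb before Hgf. In PHx3M the mean log2 ratio was 1.67 from 3 to 7.5 Mb and 1.63 from 7.5 to 10 Mb, then 0.19 from 10 to 14 Mb and -0.03 from 14 to 18 Mb, the bin that holds Hgf. PHx1M also rose at the chromosome start, with 0.51 over the first of these bins, where no region was called on this chromosome, and had -0.13 in the bin of Hgf. The fall to the level of the liver thus lay between the chromosome start and the gene in each of these 4 tumors. Among spontaneous tumors, Spon1M had 0.42 over the first bin and 0.12 in that of Hgf.

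**Figure D2:**
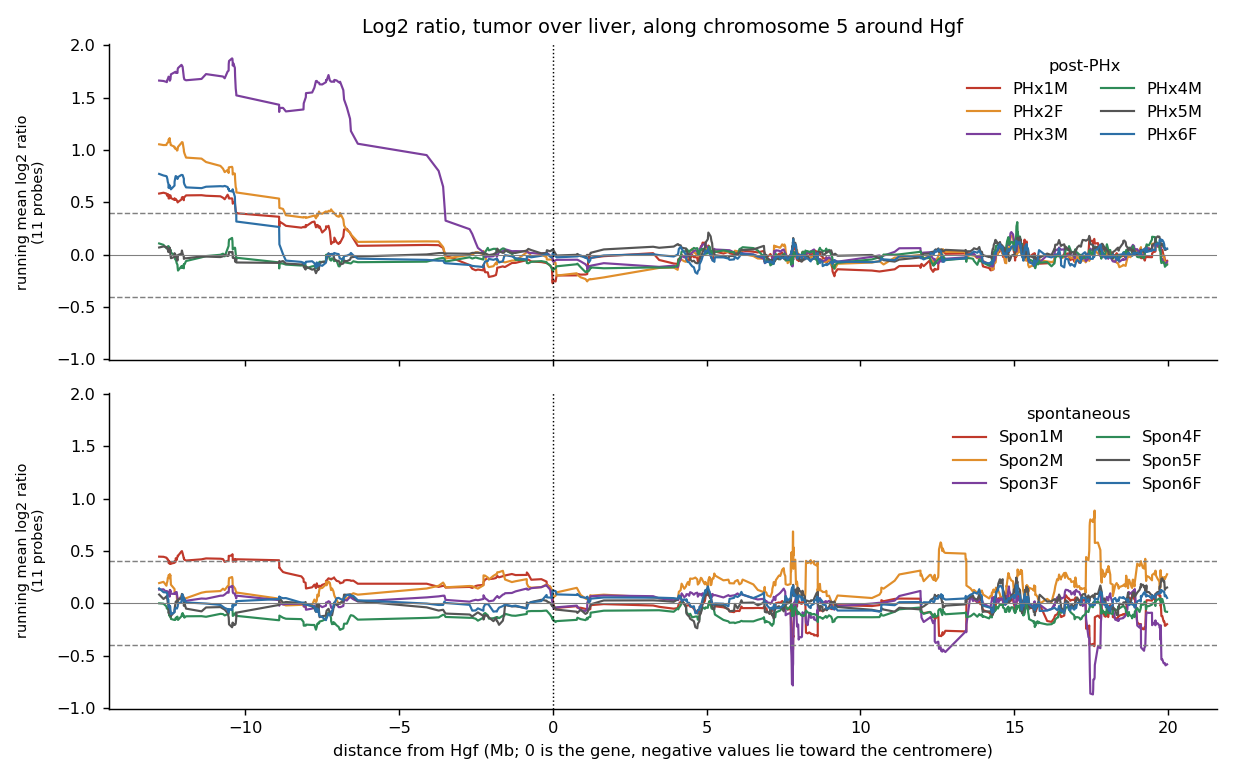
Running mean of the log2 ratio over 11 probes (vertical axis) against the distance from Hgf in Mb along chromosome 5, a line for each tumor, post-PHx tumors above and spontaneous tumors below; dashed lines are at 0.4 and -0.4 and the dotted line marks the gene. PHx1M, PHx2F, PHx3M and PHx6F are high on the left, at the start of the chromosome, and all 6 post-PHx lines lie near 0 at the gene.

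Met encodes the receptor of HGF, and its 3 probes span chromosome 6 from 17442331 to 17523648. Its window ran from -0.06 to 0.01 in post-PHx tumors (median -0.03) and from -0.24 to 0.04 in spontaneous tumors (median -0.02). The lowest value was that of Spon2M, -0.24, followed by Spon4F with -0.14. The 3 probes of the gene itself gave -0.44 in Spon2M and -0.24 in Spon4F. The groups overlapped, and their means differed by 0.03 (limma SE 0.0470, adjusted p = 0.982).

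Braf, the Raf kinase most often mutated in human cancer, lies on the same chromosome 22.0 Mb from Met, and its 7 probes span 39543097 to 39640931. Its window ran from -0.07 to 0.06 in post-PHx tumors (median -0.01) and from -0.21 to 0.03 in spontaneous tumors (median -0.02), so that the groups overlapped. Spon2M was again the lowest, with -0.21 over the window and -0.29 over the 7 probes of the gene, and Spon4F was next in the spontaneous group with -0.06. The difference of the group means was 0.04 (limma SE 0.0442, adjusted p = 0.982). In Spon2M the whole of chromosome 6 was low: its median log2 ratio was -0.24, and the interval from 3348357 to 149038020 (2383 probes) that held both genes averaged 0.855-fold, under the filter for a called region. Chromosome 6 of Spon4F had a median of -0.08.

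Egfr encodes the EGF receptor, with 2 probes on chromosome 11 from 16707588 to 16759063 and a window of 5.05 Mb, the widest of the 8. In post-PHx tumors it ran from -0.01 to 0.09 (median 0.02) and in spontaneous tumors from -0.07 to 0.26 (median 0.04). Spon1M had the highest value, 0.26, with 22 of 22 probes above 0, and Spon2M had 0.19. In Spon1M an interval from 3100146 to 17852291 (237 probes) that held the gene averaged 1.18-fold, under the filter, whereas in Spon2M the chromosome as a whole had a median of 0.11. The groups overlapped, and the means differed by -0.04 (limma adjusted p = 0.982).

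Erbb2 encodes HER2, the partner of the EGF receptor that lacks a ligand of its own, and lies 81.5 Mb further along chromosome 11, where its 2 probes span 98232924 to 98249099. In post-PHx tumors its window lay between -0.02 and 0.03 (median 0.02), the narrowest range of the 8 genes in that group. In spontaneous tumors it was -0.14 in Spon1M, 0.20 in Spon2M, -0.46 in Spon3F, -0.05 in Spon4F, 0.03 in Spon5F and 0.07 in Spon6F. Spon3F was the only tumor past the filter, in a tumor where 3.3% of all genes were called lost, and Spon5F alone fell inside the post-PHx range, with spontaneous tumors on both sides of it. The SE over probes was 0.211 in Spon3F, the largest of all 96 windows, whose median SE was 0.0401.

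The value of Erbb2 in Spon3F rested on 5 of its 22 probes. These 5 were at or below -1 (from -3.17 to -1.18), and only 2 of the 5 were next to another such probe. None of the 5 was a probe of Erbb2, whose own 2 probes averaged -0.13. Without the 5 probes the window averaged 0.02, and the median of the window was -0.08. In the other 11 tumors, the same 5 probes had a median of -0.05 and 1 of 55 values at or below -1. That value was in Spon1M, at the probe 61.9 kb before the gene, which read -2.15 there, -2.68 in Spon3F and 2.74 in Spon2M, all on slide 3. No called region held Erbb2 in any tumor. In Spon3F an interval from 95956529 to 120964391 (939 probes) that held the gene averaged 0.872-fold, under the filter. Among called regions of at least 5 probes, the nearest in Spon3F was a deleted region of 9 probes (0.548-fold) 2.10 Mb away. Shorter called regions, which were most of those in Spon3F, were left out of this search and may lie closer. The group means of the window differed by 0.07 (limma SE 0.0857, adjusted p = 0.982), and by -0.01 without Spon3F.

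**Figure D3:**
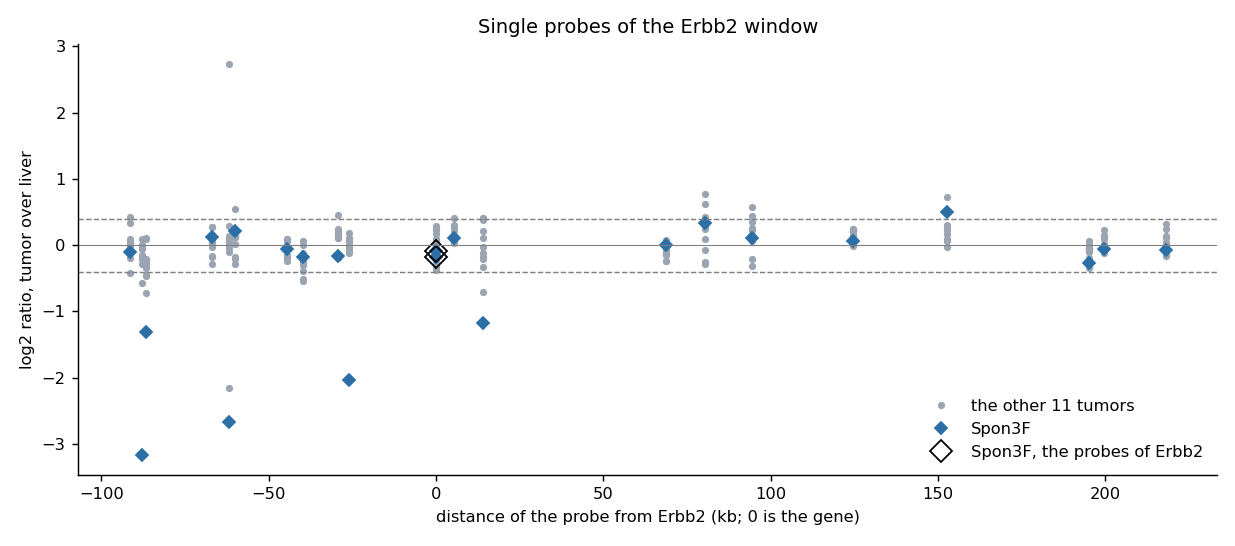
Log2 ratio of each probe of the Erbb2 window (vertical axis) against its distance from the gene in kb, in Spon3F (blue diamonds, the gene's own 2 probes ringed) and in the other 11 tumors (grey points); dashed lines are at 0.4 and -0.4. In Spon3F, 5 probes lie at or below -1 and the ringed probes lie near 0.

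Nras and Hras1 encode Ras GTPases, the switches between receptors and Raf, and each has 1 probe, so that their windows rest almost wholly on flanking probes. The probe of Nras is on chromosome 3 from 103194933 to 103194992. Its window ran from -0.17 in PHx1M to 0.02 in PHx5M in the post-PHx group (median -0.05) and from -0.11 to -0.04 in the spontaneous group (median -0.05). It was below 0 in 5 of 6 post-PHx and 6 of 6 spontaneous tumors. The median of chromosome 3 was also below 0 in every spontaneous tumor, from -0.09 in Spon4F to -0.0047 in Spon3F. In post-PHx tumors that median was below 0 except in PHx4M (0.07) and PHx5M (0.01). The gene's own probe was above 0 in Spon2M (0.08) and Spon3F (0.11) and below 0 in every other tumor. The group means against 0 were -0.06 (limma adjusted p = 0.697) and -0.07 (limma adjusted p = 0.203), so neither passed the threshold of 0.05. The groups overlapped and their means differed by 0.01 (limma adjusted p = 0.995).

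The probe of Hras1 is on chromosome 7 from 141042967 to 141043018. Its window ran from -0.06 to 0.10 in post-PHx tumors (median 0.02) and from -0.23 to 0.15 in spontaneous tumors (median 0.02). The lowest, Spon3F, held 2 probes at or below -1 and averaged -0.04 without them. The highest, Spon4F, lay on a chromosome whose median log2 ratio was 0.14 as a whole. The groups overlapped, with a difference of 0.03 (limma adjusted p = 0.982), and of -0.01 without Spon3F.

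Map2k7 encodes MKK7, which phosphorylates the JNK kinases rather than ERK, and its 2 probes span chromosome 8 from 4240595 to 4247378, near the centromere end of the chromosome. In post-PHx tumors its window was highest in PHx3M at 1.16 ± 0.05 (SE over probes), followed by PHx4M at 0.72 ± 0.03, PHx1M at 0.54 ± 0.05, PHx2F at 0.47 ± 0.05, PHx6F at 0.14 ± 0.03 and PHx5M at 0.08 ± 0.04. In spontaneous tumors it was 0.03 in Spon1M, -0.08 in Spon2M, 0.06 in Spon3F, -0.02 in Spon4F, 0.06 in Spon5F and 0.09 in Spon6F, with SEs of 0.02 to 0.06. PHx1M to PHx4M stood above all other tumors, PHx6F was just above the highest spontaneous tumor, and PHx5M fell inside the spontaneous range, so the groups overlapped. All 22 probes of the window were above 0 in each of PHx1M to PHx4M, and in PHx3M and PHx4M all 22 were above the filter. The gene's own 2 probes gave 0.43, 0.37, 1.08 and 0.62 in PHx1M to PHx4M, -0.05 and 0.11 in PHx5M and PHx6F, and -0.39 to 0.07 in spontaneous tumors. The share of all genes that were gained was 4.96% in PHx3M, 4.27% in PHx4M, 2.0% in PHx2F and 0.968% in PHx1M. PHx5M, which had no gained gene at all, and PHx6F, with 1.03%, did not gain Map2k7.

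Called amplified regions held Map2k7 in 3 tumors, and none of the other 7 genes lay in a called region of either kind in any tumor. The region ran from 3151837, the first probe of the chromosome, to 8495028 in PHx2F (5.34 Mb, 80 probes, 1.34-fold). In PHx3M it ran to 15909142 (12.8 Mb, 224 probes), and an inner piece to 6221323 reached 2.15-fold. In PHx4M it ended at 5093321 (1.94 Mb, 74 probes, 1.64-fold). Called amplified regions held 2.34%, 6.65% and 4.74% of all genes in these tumors, and 2.62% of the pairs of a gene and a post-PHx tumor, against 1.28% in spontaneous tumors. Deleted regions held 0.0% and 1.42% of these pairs. In PHx1M the interval from the same first probe to 15114630 (219 probes) averaged 0.36, 1.28-fold, and so missed the filter although the window of Map2k7 in it passed. The stretch shared by the 3 called regions reached from 3151837 to 5093321, with 74 probes and 39 gene names, so Map2k7 is 1 of 39 named genes there.

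The level fell in steps with distance from the chromosome start. From 3 to 5 Mb, the bin of Map2k7, the mean log2 ratio was 1.11 in PHx3M, 0.71 in PHx4M, 0.49 in PHx1M and 0.42 in PHx2F. From 10 to 16 Mb it was 0.70, 0.20, 0.27 and 0.00 in the same order, and from 16 to 20 Mb it lay between -0.02 and 0.03 in all 4. PHx2F was thus back at the level of its liver before 10 Mb, while PHx3M kept a gain up to about the end of its called region. The bin of Map2k7 was the highest of the 6 bins up to 30 Mb in each of the 4 tumors. In PHx6F and Spon6F the whole chromosome was shifted slightly, with medians of 0.09 and 0.14.

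**Figure D4:**
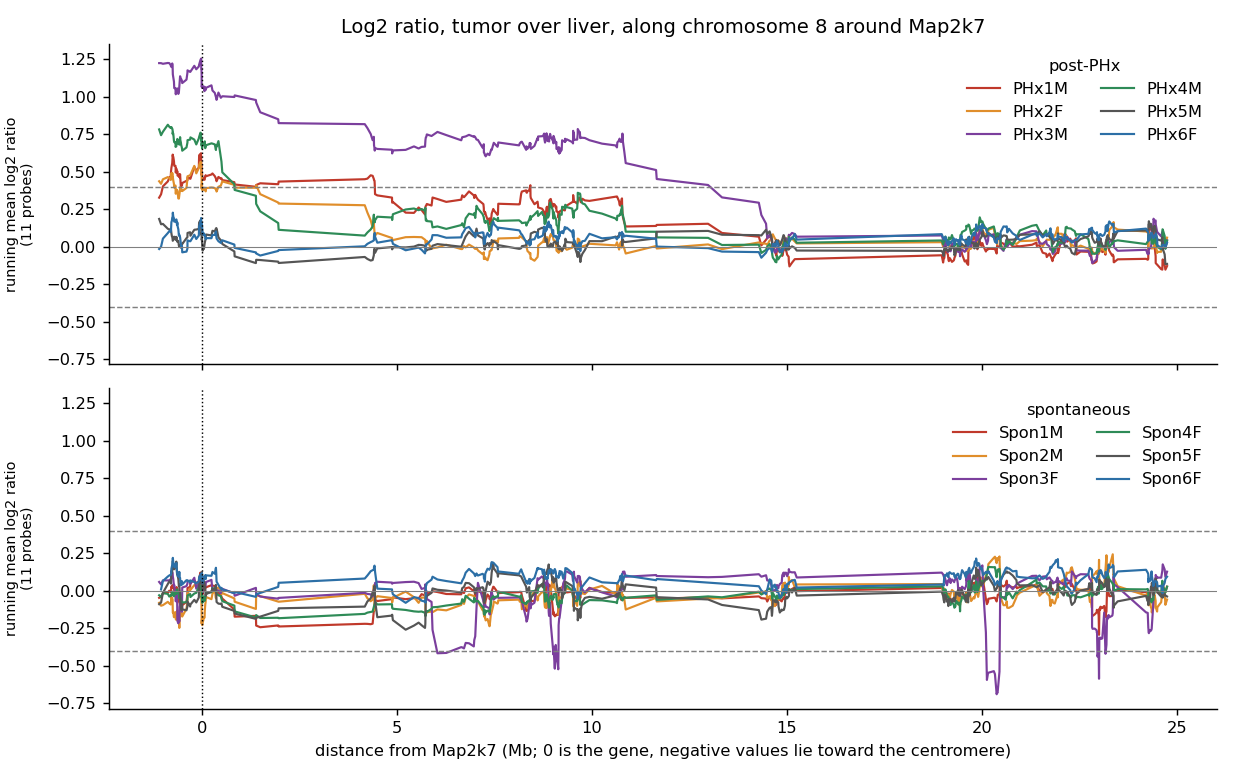
Running mean of the log2 ratio over 11 probes (vertical axis) against the distance from Map2k7 in Mb along chromosome 8, a line for each tumor, post-PHx tumors above and spontaneous tumors below; dashed lines are at 0.4 and -0.4 and the dotted line marks the gene. PHx1M, PHx2F, PHx3M and PHx4M are raised at the gene and fall to near 0 by about 15 Mb beyond it, while the spontaneous tumors stay near 0 at the gene.

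Of these 97 genes, gained in 4 or more post-PHx tumors, 24 lay on chromosome 8 between 3.15 and 4.27 Mb, and all 24 were gained in PHx1M to PHx4M, as Map2k7 was. The others were 51 genes on chromosome 18 (3.36 to 15.0 Mb) and 22 on chromosome 5 (3.43 to 5.75 Mb), and none of those 73 was gained in all of PHx1M to PHx4M. All 3 stretches lie at the start of their chromosome.

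The mean of Map2k7 was 0.52 ± 0.40 (SD, n = 6) in post-PHx and 0.02 ± 0.06 (SD, n = 6) in spontaneous tumors. The difference of 0.49 (limma SE 0.146) had an unadjusted p of 0.00501 and an adjusted p of 0.681 over all genes, and the exact permutation test over the 924 splits of the tumors gave a two-sided p of 0.00433. The post-PHx mean against 0 had an unadjusted p of 0.000244 and an adjusted p of 0.313. The 8 genes were chosen with earlier results of these data known. The unadjusted and permutation p-values of Map2k7 therefore describe the data and are no independent test. In limma, 0 of 20464 genes (0.0%) passed an adjusted p of 0.05 in the group difference or in either group mean, and 1304 (6.37%), 1410 (6.89%) and 3385 (16.5%) had an unadjusted p under 0.05. Of the 8 genes, Map2k7 alone was among the 1304, Map2k7 and Nras among the 1410, and Nras among the 3385. All 6 post-PHx tumors were above all 6 spontaneous tumors in 0.298% of genes, and in none of these 8.

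The 4 gains of Map2k7 were all on slide 1, which held no spontaneous tumor. On slide 2, the only slide with both groups, PHx5M and PHx6F had 0.08 and 0.14 against 0.06 and 0.09 in Spon5F and Spon6F, a difference of 0.03 (limma SE 0.0390, adjusted p = 0.875). With slide as a block in the fit of all 12 tumors, the difference was also 0.03 (SE 0.171, adjusted p = 1.0), since only slide 2 then informs it. Slide and group therefore cannot be told apart for the tumors that carried the gain. With the sex of the mouse as a covariate the difference was 0.45 (limma adjusted p = 0.243).

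**Figure D5:**
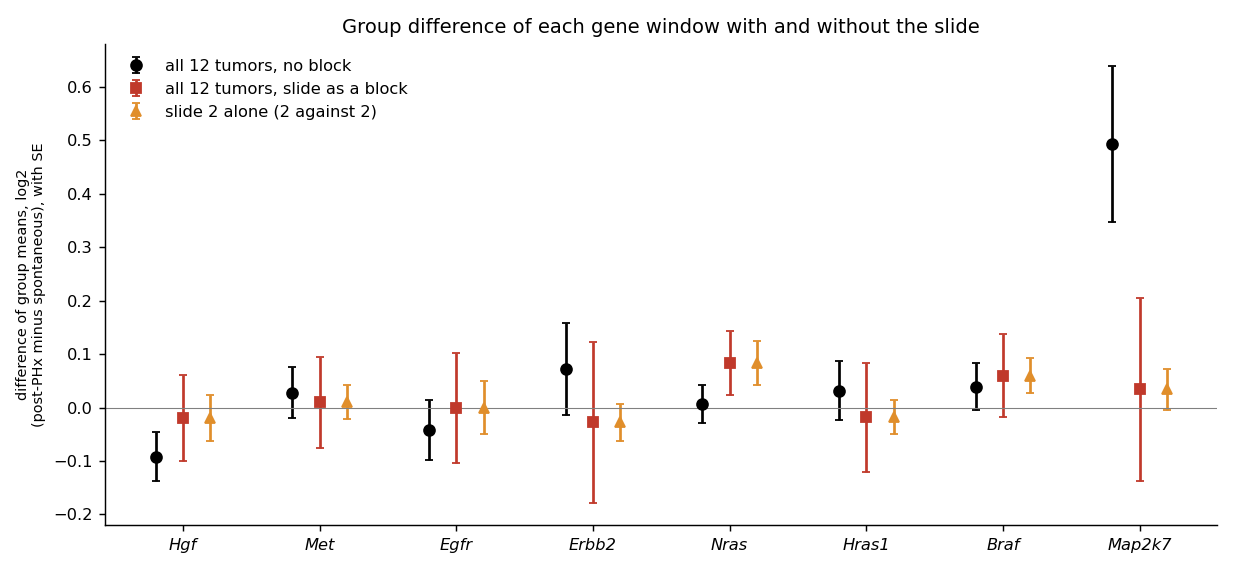
Difference of group means (post-PHx minus spontaneous, log2) of each gene window with its limma SE, over all 12 tumors (black), with slide as a block (red) and on slide 2 alone (orange). For Map2k7 the difference is 0.49 over all tumors and 0.03 in both other fits; for the other 7 genes the values of all 3 fits lie within 0.1 of 0.

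The genes on other chromosomes with the most similar values over the 12 tumors, by root mean square difference, were Ffar1 and Cd22 for Map2k7 (0.198 and 0.2, of 11903 genes compared). Both lie at 30.6 Mb of chromosome 7, next to each other, and Ffar1 read 1.22 in PHx3M, 0.40 in PHx4M, 0.36 in PHx1M and 0.08 in PHx2F, so that PHx2F differed most from Map2k7. In spontaneous tumors Ffar1 ran from -0.01 in Spon3F to 0.30 in Spon1M, with 0.25 in Spon4F. Map2k7 read 0.03 in Spon1M and -0.02 in Spon4F. For Erbb2 they were Parp1 on chromosome 1 and Epo on chromosome 5 (0.0401 and 0.0419, of 11505), which read -0.46 and -0.43 in Spon3F. The Erbb2 window in Spon3F rested on 5 low flanking probes, as described above. Whether the windows of Parp1 and Epo did so was not examined.

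A list of 68 further genes of the same pathways, of which 65 were measured, was read in the same way. In post-PHx tumors 2 of 390 pairs were gains (0.513%, against 2.21% over all genes) and 0 were losses (0.0% over all genes). In spontaneous tumors 3 pairs were gains (0.769%, against 1.53% over all genes) and 5 were losses (1.28%, against 2.02%). By limma 0 of the 65 genes were higher and 0 lower at an adjusted p of 0.05, and 1 of 65 (Errfi1, an inhibitor of the EGF receptor) had an unadjusted p under 0.05 for the group difference. The share of all genes past that unadjusted threshold was 6.37%, as given above. The median difference over the list was -0.0034, and over all genes 0.012.

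By class, the 2 post-PHx gains were ligands of ErbB receptors, Hbegf in PHx2F (0.63) and Egf in PHx4M (0.46), each in 1 tumor. The receptor Pdgfrb, the only gene of the list past the filter in at least 2 tumors, was gained in Spon2M (0.42) and lost in Spon3F (-0.44). Among the 16 genes listed as inhibitors of the pathway, Spry4 (0.99) and Cbl (0.55) were gained in Spon1M. That class also held Hgfac, which encodes the HGF activator and is not an inhibitor. Spon5F lost 3 genes of chromosome 14, namely Mapk8, which encodes the JNK1 kinase that MKK7 phosphorylates (-0.54), the inhibitor Spry2 (-0.55) and the ligand Nrg3 (-0.46). Mapk8 lies at 32.2 Mb, Nrg3 at 37.3 Mb and Spry2 at 104.8 Mb. Whether these 3 are separate losses or 1 loss along the chromosome was not tested. Map2k2, which encodes the ERK kinase MEK2, was the remaining loss (-0.45 in Spon3F). Except Pdgfrb, these genes are named because they passed the filter in 1 tumor, and were chosen after their values were seen. The 9 adaptors and exchange factors, 4 Ras family genes and 3 Raf family genes and scaffolds measured had no window past the filter in any tumor. The same held for 74.6% of all genes.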

How the data were processed

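DNA of 12 tumors, each against its matched liver, was measured on 1 two-colour Agilent array per tumor. The authors deposited the output of Agilent Feature Extraction 10.5.1.1 for each array: signal intensities of both channels, background-subtracted and dye-normalized, and the log10 ratio of red over green with its error. At least 99.7% of these ratios equalled the log10 of the deposited signals within 0.001. The authors called aberrations with ADM-2 in CGH Analytics, and those calls were not used.

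Control spots and outlier spots (108 to 1218 per array) were left out, ratios became log2 values, replicate spots were averaged, and the autosomal median of an array was set to 0, with 42235 positioned probes and no loess. Median signals were 7.04 to 25.9 (green) and 3.79 to 11.9 (red) times the background, and together with the number of arrays this limits the precision. A gene had to lie on 1 chromosome and span under 3 Mb. Window means were tested with limma 3.58.1 (R 4.3.3, lmFit and eBayes, Benjamini-Hochberg over all genes) and with exact permutation tests for the 8 genes. Regions needed a score of 6, 2 or more probes and a mean log2 ratio of 0.4 or more in size. Both were tested on simulated data. The study describes these arrays as those of 6 hepatectomized and 6 untreated mice, so each tumor is from its own mouse. Other steps used Python 3.11.15, numpy 2.4.6, scipy 1.17.1, pandas 2.3.3, numba 0.67.0 and matplotlib 3.10.9.

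The 8 genes and the pathway list were chosen with earlier results of these data known, so their unadjusted and permutation p-values are descriptive. The text names every one of the 8, pathway genes past the filter in at least 2 tumors, and for each of the 8 past the filter the 2 most similar genes on other chromosomes. Of the pathway list, Nrg2, Sos2 and Ksr2 were not found under these names among the genes measured and were not analysed here. As alternatives, the background was corrected by normexp (offset of 50), arrays were left uncentred or centred on the mode, and dim probes were dropped. The window was changed to 5 or 20 flanking probes, to own probes or to its median, the filter to 0.25 or 0.6, and genes with fewer than 2 own probes were left out. Region calls were repeated with other score thresholds, equal probe weights and a minimum of 5 probes. The model was refitted with slide, with sex and with the tumor number, and without each tumor.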

Additional observations from a re-analysis of the deposited data

How the results depend on the processing

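Of 167 alternatives of the main counts and tests, 153 gave the same outcome. A moderately changed count was taken as the same, such as 2 or 4 amplified regions around Map2k7 in place of 3. Counts of 0 that stayed at 0 are also among the 153. The 4 gains of Map2k7 were 2 at a filter of 0.6 (PHx3M and PHx4M), and with own probes alone PHx2F fell to 0.37. At a filter of 0.25 the spontaneous tumors had 1 gain, Egfr in Spon1M. The loss of Erbb2 in Spon3F gave 0 losses after normexp correction, with 5 or 20 flanking probes, with the median of the window and at a filter of 0.6 (0 to 1 when tumors were left out in turn, 0 without Spon3F), and with own probes alone the 1 loss was Met in Spon2M (-0.44) instead. Amplified regions that held Map2k7 numbered 2 at a filter of 0.6 and 4 at a filter of 0.25 or a score threshold of 5. Genes past the adjusted threshold in limma stayed at 0 for the group difference in every fit. For the post-PHx mean they were 5 after normexp and 547 with own probes, and for the spontaneous mean 797 after normexp, 417 with centring on the mode, 850 with own probes and 0 to 607 with tumors left out (607 without Spon5F). The cause was not tested. The limma adjusted p of Map2k7 ranged from 0.243 to 1.0, and its difference from 0.36 to 0.58 with tumors left out.

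Of 198 alternatives of the 8 differences, 184 kept the sign and the side of the adjusted p threshold, and all reversals were of small values. The size of a difference was not part of this count. The fall of the Map2k7 difference to near 0 with slide as a block and on slide 2 alone is thus among the 184. Erbb2 (0.07) was -0.028 with slide as a block and on slide 2 alone, and Hras1 (0.03) was -0.018 in both and -0.0043 with the median. Nras (0.01) was -0.0037 without centring, -0.012 with 5 flanking probes, -0.078 with own probes and -0.0095 with the median. With tumors left out, Met ran from -0.0076 (without Spon2M) to 0.048, Erbb2 from -0.0080 (without Spon3F) to 0.12, Nras from -0.0095 (without PHx5M) to 0.029 and Hras1 from -0.012 (without Spon3F) to 0.064. The spontaneous mean of Map2k7 (0.02) was -0.10 with own probes. The numbers in the tumor names mark different mice; same-numbered tumors correlated from -0.174 to 0.554 and 1 tumor correlated best with its own number. With the tumor number as a replicate block, 0 genes passed and the difference of Map2k7 was 0.49 (limma adjusted p = 0.571).

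Each tumor had 1 array and no dye swap, so dye and tissue cannot be told apart. Shifts smaller than the filter were seen only as means over many probes. Nras and Hras1 have 1 probe each, so a change limited to the gene itself was not measurable by the window.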
